A study of Mus musculus with 8 samples.

Results

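The genes described here encode 10 acute-phase proteins that the liver secretes into blood, namely Saa1, Saa2, Saa4, Orm1, Orm2, Hp, Hpx, Lcn2, Crp and Apcs. They were selected by symbol from the 11784 genes measured in mouse liver, and all 10 were found. The group was chosen from values already seen in these same mice: Saa1, Saa2 and Orm1 were known to be lower on a low amino acid diet and to be high in a single Control mouse. The levels of those 3 genes are therefore a description, no p-value is given for them, and counts of tested genes below are over the other 7.

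Livers came from 8 male C57BL/6J mice, a wild-type inbred strain with no transgene. All were put on amino acid-defined diets at 9 weeks of age, stayed on them for 4 months and were fasted for about 16 hours before the liver was taken. The 4 Control mice (F129, F2212, F7111 and F2110) ate the Control diet, TD.140711, and the 4 Low AA mice (H1126, H828, H817 and H1315) ate the Low AA diet, TD.140712, in which a smaller share of the calories came from amino acids, a larger share from carbohydrate and a nearly equal share from fat. Poly(A) RNA was sequenced from each liver, and each value is a read count that the authors scaled between mice and rounded, here called a scaled count. Values of several mice are always given in the order of the codes above.

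Acute-phase proteins are plasma proteins whose output by hepatocytes changes when tissue is injured or infected. Interleukin-6, acting through its receptor and the transcription factor STAT3, interleukin-1, acting through NF-kappa-B, and factors of the C/EBP family are the classical inducers of these genes, and serum amyloid A is the most strongly inducible of them in the mouse. Amino acid supply is known as another influence on the plasma proteins made by the liver, whose synthesis draws on the same amino acids.

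Total scaled counts ranged from 28361406 to 29485422 among the Control livers and from 27876664 to 30799385 among the Low AA livers, and the median gene had between 433.0 and 449.0 in every mouse. These sums come after scaling and do not give the sequencing depth. All 9 hepatocyte markers examined were present, and their summed counts ran from 2335089 to 2952784 on the Control diet and from 2652754 to 2895449 on the Low AA diet, as the tissue label has it. The Control mouse F2212 stood apart from the other livers in genes outside the acute phase as well: Cela1, a pancreatic elastase, had 36587 scaled counts there, while the remaining Control livers had 130 to 178 and the Low AA livers 190 to 288. Because this is whole tissue, fewer cells of a type and less RNA per cell cannot be told apart in any value below.

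Among the members are 3 serum amyloid A genes that lie next to each other on chromosome 7 (GRCm38, the mm10 assembly). Saa4 covers chr7:46727992-46732603 on the minus strand, Saa1 covers chr7:46740497-46743181 on the minus strand and Saa2 covers chr7:46751833-46754313 on the plus strand. A stretch of 147 bases upstream of each start, from 190 to 44 bases before it and clear of any GENCODE exon, is shown. In it Saa1 and Saa2 are nearly the same and Saa4 is unlike them. The mice differed far more in Saa1 and Saa2 than in Saa4, and whether the promoters have a part in that was not tested. The sequences are from RefSeq (GRCm38.p6), read 5′ to 3′ on the strand of the gene. For Saa1 the bases are counted from 46742980, the start of the GENCODE gene; the RefSeq span given above reaches further upstream, so the Saa1 stretch lies inside that span. Capitals mark a match to the C/EBP motif TTGCNNAA in each promoter, which in Saa4 is on the opposite strand and so reads as its reverse complement, and, later in the Saa1 promoter, a match to the loose NF-kappa-B consensus.
Saa1, chr7:46743024-46743170, minus strand: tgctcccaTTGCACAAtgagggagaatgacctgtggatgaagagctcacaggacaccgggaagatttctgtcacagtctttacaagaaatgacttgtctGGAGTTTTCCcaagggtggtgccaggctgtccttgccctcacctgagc
Saa2, chr7:46751643-46751789, plus strand: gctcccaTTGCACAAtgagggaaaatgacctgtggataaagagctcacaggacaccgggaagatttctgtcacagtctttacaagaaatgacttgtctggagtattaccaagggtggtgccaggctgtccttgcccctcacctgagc
Saa4, chr7:46732647-46732793, minus strand: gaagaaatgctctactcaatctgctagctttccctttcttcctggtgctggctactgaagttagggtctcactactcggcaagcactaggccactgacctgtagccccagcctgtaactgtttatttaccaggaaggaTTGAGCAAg

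Over the printed stretch, Saa1 and Saa2 were identical in 142 of 148 aligned columns (95.9%), and Saa1 and Saa4 were identical in 46.7% of theirs. RefSeq promoters were at hand for 8 members, all but Orm1 and Hp, and were searched on both strands over the 250 bases before the start. TTGCNNAA was found in 6 of the 8 (Saa1, Saa2, Saa4, Orm2, Hpx and Lcn2) and in 9.56% of all 32851 promoters. The STAT motif TTCNNNGAA was found in 1 of the 8, Apcs, 244 bases before its start, and in 7.02% of all promoters. A strict form of the NF-kappa-B consensus matched 0 of the 8 and 7.25% of all promoters. The loose form, which includes every strict match, was present in Saa1, 91 bases before the start, and in Lcn2, 43 bases before the start, and in 9.55% of all promoters. A match is a string of letters and not a shown binding site.

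Serum amyloid A1 is an apolipoprotein of high-density lipoprotein that floods the plasma in inflammation. The Control mice had 1068, 57733, 1892 and 2818 scaled counts of Saa1, and the Low AA mice had 715, 68, 549 and 770. The groups did not overlap, since even the highest Low AA liver was below the lowest Control liver. Each diet nevertheless had a mouse far from its group: F2212 had 30.0 times the mean of the other Control mice, and the mean of the other Low AA mice was 9.97 times the value of H828. The log2 fold change, on the scale of log2(value + 1) and taken as Low AA minus Control here and throughout, was -3.49 with a standard error (SE) of 1.17. It was -2.23 (SE 0.75) without F2212 and -2.66 without H828.

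Saa2 encodes a closely related inducible form. Its scaled counts were 159, 32724, 401 and 503 on the Control diet and 187, 21, 292 and 312 on the Low AA diet. Here the diets overlapped, because the Control mouse F129 was lower than 3 of the Low AA mice. The same mice stood apart as for Saa1, with F2212 at 92.4 times the mean of the other Control mice and H828 exceeded 12.6-fold by the mean of the other Low AA mice. The log2 fold change of -2.86 (SE 1.48) went to -1.19 without F2212 and to -1.97 without H828. Saa1 counts were 6.72, 1.76, 4.72 and 5.60 times those of Saa2 in the Control mice and 3.82, 3.24, 1.88 and 2.47 times in the Low AA mice, so Saa1 had more reads than Saa2 in every liver and the ratio was lowest in F2212. The coding transcripts of Saa1 and Saa2 are 87.3% identical, their longest identical run is 76 bases and 0 windows of 100 bases, the read length, are shared. RefSeq lists each symbol as an older synonym of the other, so which of the neighbouring genes a symbol means can depend on the annotation used.

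Serum amyloid A4 is the constitutive member of the family, also carried on high-density lipoprotein. Saa4 had 2278, 3894, 4254 and 1695 scaled counts in the Control mice, a mean of 3030 ± 1237 (SD, n = 4), and 1055, 1256, 901 and 1515 in the Low AA mice, a mean of 1182 ± 265 (SD, n = 4). All 4 Low AA livers were lower than all 4 Control livers, and neither F2212 nor H828 was at the edge of its group. The log2 fold change was -1.29 (SE 0.28), with a limma adjusted p of 0.0915 over all genes. With each mouse left out in turn that p ran from 0.0425 (without F2110) to 0.296 (without H817), and only without F2110 was it past the threshold of 0.05.

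**Figure D1:**
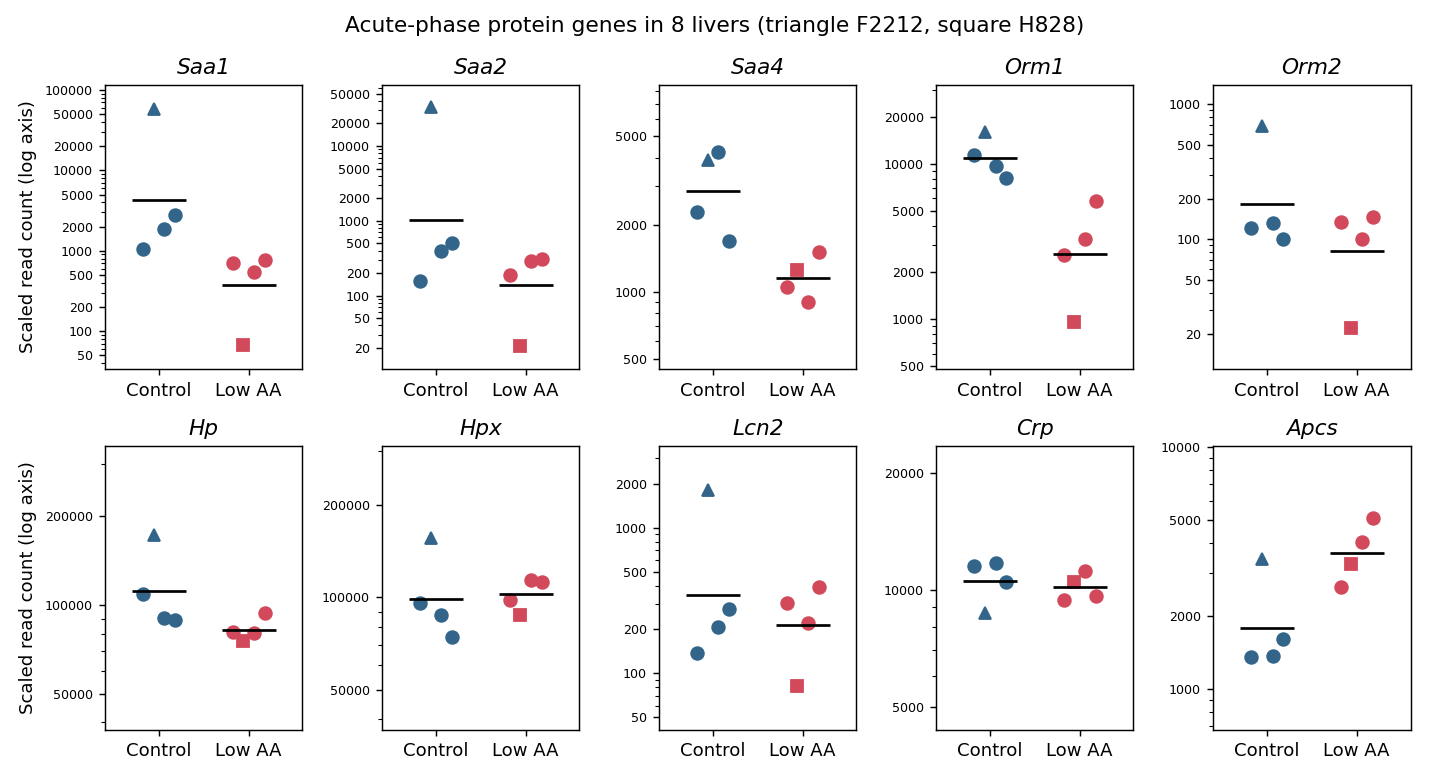
Scaled read counts of the 10 acute-phase genes in each liver, on log axes that differ between panels; points are mice (blue Control, red Low AA, triangle F2212, square H828) and bars are geometric means. Saa1, Saa4 and Orm1 do not overlap between diets, F2212 lies far above the other Control mice in Saa1, Saa2, Orm2 and Lcn2, and Apcs is the gene whose other 3 Control mice lie below every Low AA mouse.

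Orosomucoids, or alpha-1-acid glycoproteins, are plasma carriers of basic and neutral lipophilic compounds. The mouse genes are neighbours on chromosome 4, Orm1 at chr4:63344556-63348163 and Orm2 at chr4:63362449-63365877, both on the plus strand. Orm1 had 11372, 16131, 9665 and 8111 scaled counts in the Control mice and 2598, 955, 3274 and 5794 in the Low AA mice. The diets did not overlap, and the spread was on the other side from that of Saa1: the Control mice lay within 1.99-fold of each other and the Low AA mice within 6.07-fold. Its log2 fold change was -2.06 (SE 0.45), -1.88 without F2212 and -1.58 without H828.

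Orm2 was far less abundant, with 122, 693, 132 and 100 scaled counts on the Control diet and 134, 22, 101 and 147 on the Low AA diet. Apart from F2212 and H828, the values of both diets lay in the same narrow range of 100 to 147. A log2 fold change of -1.15 (SE 0.70) had a limma adjusted p of 0.580, and it was -0.51 without F2212 and -0.54 without H828. Orm1 counts were 93.2, 23.3, 73.2 and 81.1 times those of Orm2 in the Control mice and 19.4, 43.4, 32.4 and 39.4 times in the Low AA mice, so the ratio in F2212 was among the Low AA ratios. The transcripts of Orm1 and Orm2 are 91.0% identical and share 47 of 676 windows of 100 bases (6.95%), so part of the Orm2 count could have come from Orm1 reads, depending on how shared reads were assigned.

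Haptoglobin and hemopexin clear the products of lysed red cells: Hp protein binds free hemoglobin and Hpx protein binds free heme. Hp, at chr8:109575128-109579172 on the minus strand, had 109368, 173371, 90406 and 89087 scaled counts in the Control mice and 81288, 75648, 80263 and 94073 in the Low AA mice. The diets overlapped only through the Low AA mouse H1315, which was higher than 2 Control mice. The log2 fold change was -0.43 (SE 0.20) with a limma adjusted p of 0.454, and -0.22 without F2212.

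Hpx, at chr7:105591611-105600116 on the minus strand, had 95617, 156437, 87425 and 74074 scaled counts in the Control mice and 98252, 87780, 114070 and 112715 in the Low AA mice. With F2212 the diets overlapped fully; among the other 7 mice the Low AA values were the higher ones, apart from H828, which was below F129. For Hpx the log2 fold change was 0.05 (SE 0.21) with a limma adjusted p of 0.957, and 0.27 without F2212. The ratio of Hp to Hpx counts in the same liver did not overlap between diets, at 1.14, 1.11, 1.03 and 1.20 in the Control mice and 0.827, 0.862, 0.704 and 0.835 in the Low AA mice. In this ratio F2212 was inside its group. The ratio was picked after its values had been seen and was not tested.

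Lipocalin 2 binds bacterial siderophores and so withholds iron from bacteria. Lcn2, at chr2:32384637-32387739 on the minus strand, had 138, 1830, 207 and 275 scaled counts in the Control mice and 305, 82, 221 and 391 in the Low AA mice. F2212 was 8.85 times the mean of the other Control mice, and H828 was the lowest of all 8. Between the diets the log2 fold change was -0.68 (SE 0.74), with a limma adjusted p of 0.790, and changed sign to 0.12 (SE 0.47) without F2212.

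The pentraxins C-reactive protein and serum amyloid P component are ring-shaped proteins that bind microbial surfaces and cell debris. Their genes lie on chromosome 1, Crp at chr1:172698056-172699966 on the plus strand and Apcs at chr1:172893961-172895054 on the minus strand. In the mouse, serum amyloid P component is the strongly inducible pentraxin and C-reactive protein changes little, the reverse of the human pattern. Crp had 11520, 8718, 11728 and 10458 scaled counts in the Control mice and 9421, 10442, 11143 and 9609 in the Low AA mice. This was the steadiest of the 10 genes in both diets, and the only one of them in which F2212 was the lowest of all 8 mice. Its log2 fold change was -0.06 (SE 0.12), with a limma adjusted p of 0.902.

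Apcs went the other way from the serum amyloid A genes. It had 1351, 3439, 1365 and 1603 scaled counts in the Control mice, a mean of 1940 ± 1006 (SD, n = 4), and 2630, 3273, 4049 and 5064 in the Low AA mice, a mean of 3754 ± 1048 (SD, n = 4). F2212 was above 2 of the Low AA mice, and the other 3 Control mice were below all 4. The log2 fold change was 1.03 (SE 0.30), with a limma adjusted p of 0.192. Without F2212 it was 1.34 (SE 0.20) with a limma adjusted p of 0.0242, which passed the threshold; F2212 was left out after its values were known, and without any other single mouse the adjusted p stayed above 0.05, up to 0.465.

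Of the 7 genes other than Saa1, Saa2 and Orm1, 0 passed an adjusted p under 0.05 in limma, where 0.399% of all genes did. These 7 are not an independent set, because the members were chosen with earlier results of these mice known. At an unadjusted p under 0.05 there were 2, with Saa4 lower and Apcs higher on the Low AA diet, where 11.8% of all genes passed. Every Low AA mouse was lower than every Control mouse in 1 of the 7, Saa4, which held for 3.55% of all genes; it held also for Saa1 and Orm1, as a description. The median log2 fold change of these 7 genes was -0.43, against 0.00 over all genes, and it was -0.15 without F2212 and -0.22 without H828. With Saa1, Saa2 and Orm1 included, the median was -0.92, and -0.37 without F2212 and -0.46 without H828.

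**Figure D2:**
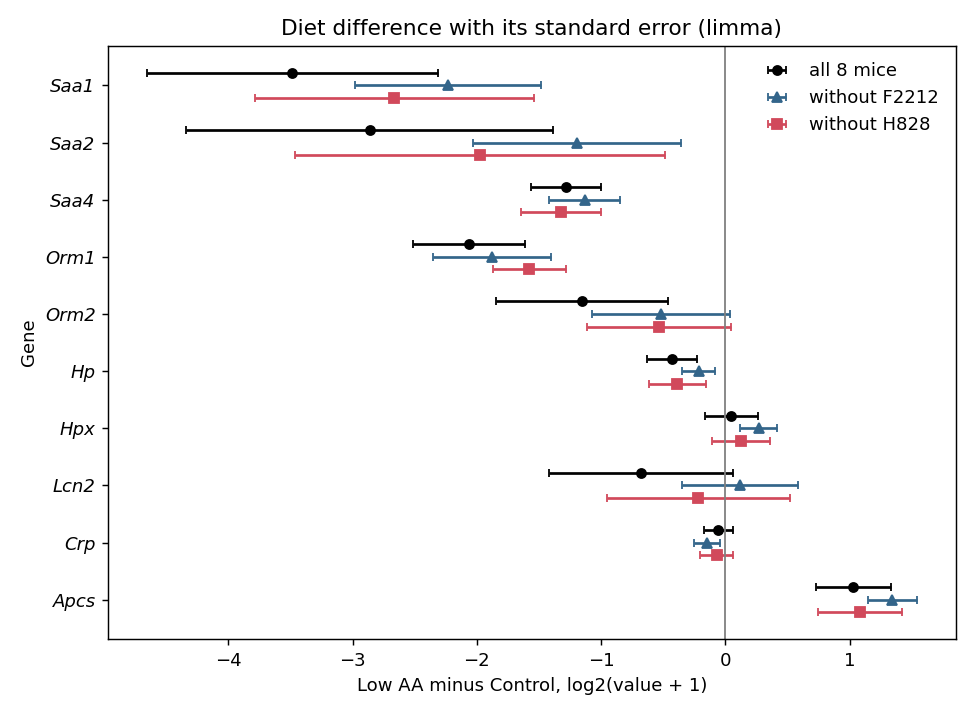
Log2 fold change (Low AA minus Control, log2(value + 1) scale) of each acute-phase gene with its limma standard error, with all 8 mice (black), without F2212 (blue) and without H828 (red). Leaving F2212 out brings Saa1, Saa2, Orm2 and Lcn2 closer to 0, and Lcn2 crosses it, while Apcs goes from 1.03 to 1.34.

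The spread among mice on the same diet was the other property in which these genes varied widely. The SD of log2(value + 1) over the 4 Control mice was 3.42 for Saa2, 2.57 for Saa1, 1.65 for Lcn2 and 1.29 for Orm2, which placed them at ranks 4, 8, 23 and 56 among the 11784 genes. Over the 4 Low AA mice it was 1.81 for Saa2, 1.66 for Saa1, 1.25 for Orm2, 1.08 for Orm1 and 0.98 for Lcn2, at ranks 11, 16, 30, 44 and 65. Saa1, Saa2, Orm2 and Lcn2 thus varied widely in both diets, whereas Orm1 had a Control SD of 0.42, at rank 1773. At the other end, Crp had an SD of 0.20 on the Control diet and 0.11 on the Low AA diet, and Hp had 0.13 on the Low AA diet. The median SD of the 10 genes was 0.64 in the Control mice and 0.69 in the Low AA mice, against 0.230 and 0.172 over all genes. Without Saa1, Saa2 and Orm1, whose spread was known when the group was chosen, it was 0.63 in the Control mice and 0.32 in the Low AA mice.

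**Figure D3:**
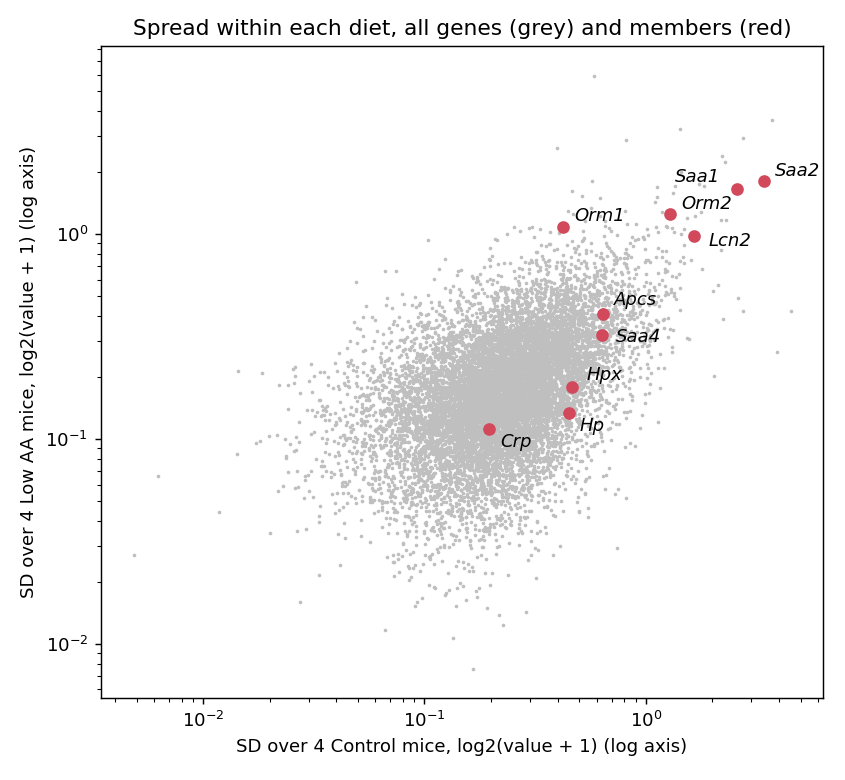
Standard deviation (SD) of log2(value + 1) over the 4 Control mice (x axis) and over the 4 Low AA mice (y axis), both log axes, for all 11784 genes (grey) and the 10 acute-phase genes (red). Saa1, Saa2, Orm2 and Lcn2 lie at the upper right, Orm1 is wide only on the Low AA diet, and Crp lies inside the grey cloud.

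A single mouse in each diet carried most of that spread. F2212 was the highest of all 8 mice in 7 of the 10 genes, all but Saa4, Crp and Apcs, where it was the highest in 20.3% of all genes. H828 was the lowest of all 8 in 6 of the 10, namely Saa1, Saa2, Orm1, Orm2, Hp and Lcn2, against 13.5% of all genes. Saa1, Saa2 and Orm1 were known to be high in a single Control mouse; among the other 7 genes F2212 was the highest in 4 and H828 the lowest in 3. When all 11784 genes were ordered by how far F2212 lay above the other Control mice on the log2 scale, Saa2 was at place 2, Saa1 at 5, Lcn2 at 7 and Orm2 at 13. Ordered by how far H828 lay below the other Low AA mice, Saa2 was at place 3, Saa1 at 4, Orm2 at 8, Orm1 at 12 and Lcn2 at 16. For Saa1, Saa2 and Orm1 these places restate or follow from the values that chose the group. Without F2212 the SD over the remaining Control mice was 0.70 for Saa1 and 0.88 for Saa2, and the median over the 10 genes was 0.22. That median was 0.187 over the 7 genes other than Saa1, Saa2 and Orm1, and 0.195 over all genes. Without H828 the SD over the remaining Low AA mice was 0.26 for Saa1 and 0.40 for Saa2, and the median over the 10 genes was 0.33. It was 0.280 over those 7 genes and 0.152 over all genes. The 10 genes together made up 0.792%, 1.57%, 0.704% and 0.665% of the scaled counts in the Control mice and 0.691%, 0.644%, 0.741% and 0.748% in the Low AA mice, and Saa1 with Saa2 made up 0.311% in F2212.

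The summed markers of several other cell types were highest in F2212, and their part in these results was not tested. Not every single marker was: F2212 was the highest mouse in 5 of the 11 Kupffer cell and macrophage markers. It was the highest in 1 of the 2 neutrophil, 2 of the 3 lymphocyte and 5 of the 6 erythroid markers. The neutrophil marker S100a9 had 130 scaled counts in F2212, and the next highest were H1126 at 51 and H1315 at 48. Csf3r, the other neutrophil marker, had 69 in F2212, 77 in F7111 and 96 in H1126, its highest mouse. The summed scaled counts of 11 of 11 Kupffer cell and macrophage markers ran from 9960 to 15397 in the Control mice, with F2212 the highest, and from 10954 to 15113 in the Low AA mice. Only 2 of 11 neutrophil markers were in the table, with sums of 85 to 199 on the Control diet, F2212 the highest, and 88 to 147 on the Low AA diet. For 3 of 11 lymphocyte markers the sums were 263 to 547, F2212 again the highest, and 325 to 477. For 6 of 8 erythroid markers the sums were 7768 to 30071, with F2212 the highest, and 10093 to 14931. Among pancreatic acinar markers 1 of 18, Cela1, was in the table, with the values given above. The sums of 11 of 11 stellate and endothelial markers were 11220 to 13755 and 11705 to 13858, with F2212 inside the range. Fabp4 was the 1 of 6 adipose markers in the table, at 147 to 743 on the Control diet and 209 to 1050 on the Low AA diet, with H828 the highest. Every gene in the table reaches 28 in at least 3 mice, so no marker there could be at 0 in all mice. A marker high in a single mouse could be missing for the same reason. Markers that are not in the table are therefore not shown to be absent.

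Levels can be set against each other only per length of transcript. By the geometric mean scaled count per kilobase of exon, Hp (82651) and Hpx (66182) led in the Control mice, followed by Orm1 (14130.0), Saa1 (6994), Crp (6215), Apcs (1839), Saa2 (1555), Saa4 (1351), Lcn2 (379) and Orm2 (236). In the Low AA mice the order was Hpx (68458), Hp (61373), Crp (5977), Apcs (3754), Orm1 (3380.0), Saa1 (623), Saa4 (554), Lcn2 (236), Saa2 (213) and Orm2 (105). Hpx stood above Hp, and Crp and Apcs above Orm1 and Saa1, in the Low AA order alone. Neighbours whose spreads overlapped, such as Saa1 and Crp in the Control mice, cannot be ranked from these values. Hp and Hpx also overlapped there, but Hp had more scaled counts than Hpx in every Control liver. With its shorter exon length, 1345 against 1499 bases, Hp was thus above Hpx per kilobase within each of those livers. The place of Saa1 and Saa2 in the Control order rested on F2212, since the other 3 Control mice had at most 2818 and 503 scaled counts.

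The wider set of genes whose products rise in an acute phase was examined beside the members. All 22 further positive acute-phase genes listed were in the table, and 0 passed the adjusted threshold in limma, with 1 at an unadjusted p under 0.05, Cp, the copper-carrying ferroxidase ceruloplasmin, which was higher on the Low AA diet. Over all genes 0.399% passed the adjusted threshold and 11.8% the unadjusted one. The median log2 fold change of the 22 genes was 0.11. F2212 was the highest of 8 in 9 of the 22, where it was the highest in 20.3% of all genes. The Control mouse F129 was the lowest in 9 of the 22, against 7.85% of all genes. H828 was the lowest in 6, against 13.5% of all genes. The highest log2 fold change in this list was that of Il1rn, the interleukin-1 receptor antagonist, at 0.48 with a limma adjusted p of 0.518. Orm3, another orosomucoid gene, had the lowest value, -1.58 with a limma adjusted p of 0.463, on scaled counts of 16, 38, 39 and 28 in the Control mice and 18, 1, 6 and 35 in the Low AA mice.

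Mt2 and Hamp varied most among those 22 genes. Mt2, a metal-binding metallothionein, had 2718 scaled counts in F2212, 504 in F7111 and 949 in F2110, and less than these in F129, and the Low AA mice had 555, 102, 622 and 1824, so that F2212 was again the highest and H828 the lowest. Hamp, which encodes the iron hormone hepcidin, had 2675, 25118, 12023 and 19336 in the Control mice and 17454, 1169, 17446 and 22426 in the Low AA mice. In Hamp the Control mouse F129 was low as well. Genes of more moderate range in which F2212 was also the highest were named after their values had been seen. Itih4, an inter-alpha-trypsin inhibitor chain, had 73704 scaled counts in F2212 against 22335 to 38835 in the other Control mice. Lrg1, a leucine-rich glycoprotein, had 15896 against 6735 to 7193, and Fgl1, a fibrinogen-like hepatokine, had 27088 against 9562 to 11558. In the Low AA mice Itih4 had 44550 to 56163, above those other Control mice, Lrg1 had 4327 to 8789 and Fgl1 had 11555 to 20446. The log2 fold change of Itih4 was 0.43 with a limma adjusted p of 0.658. Without F2212 it was 0.76 with a limma adjusted p of 0.112. The fibrinogen chains were flatter. Fga had 97986 in F2212 against 81527 to 105748 in the other Control mice. Fgb had 104781 against 85974 to 91018, and Fgg had 81095 against 62508 to 64878. The Low AA mice had 87942 to 112968 for Fga, 91337 to 107300 for Fgb and 64650 to 78683 for Fgg. F2212 was the highest of all 8 mice in Fgg alone of these chains.

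**Figure D4:**
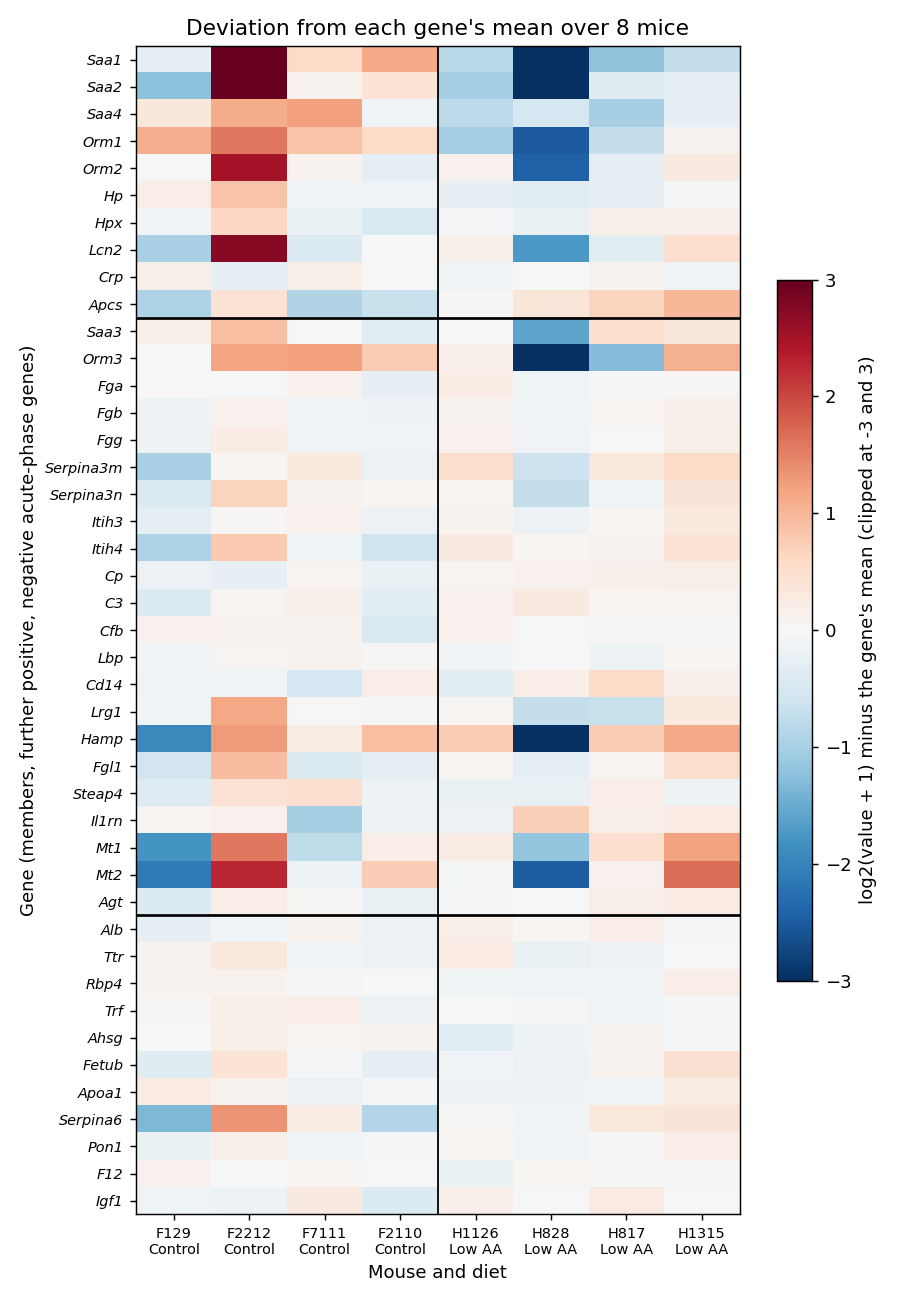
Deviation of each acute-phase gene in each mouse from its mean over the 8 mice, in log2(value + 1) units with colours clipped at -3 and 3, for the 10 members, 22 further positive and 11 negative acute-phase genes, separated by lines. The column of F2212 is highest in 7 of the 10 and 9 of the 22 genes. The column of H828 is lowest in 6 of the 10 and 6 of the 22, and that of F129 in 1 of the 10 and 9 of the 22. The negative genes are paler.

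Negative acute-phase genes, whose products fall in inflammation, were in the table for 11 of 11, and 0 were called in limma, with 0 at an unadjusted p under 0.05 and a median log2 fold change of -0.07. Over all genes 0.399% were called and 11.8% were under that unadjusted p. Serpina6, corticosteroid-binding globulin, had both the widest range and the highest fold change in this list, 0.33 with a limma adjusted p of 0.845, and its scaled counts were 531, 3442, 1589 and 732 in the Control mice and 1396, 1283, 1687 and 1775 in the Low AA mice. F2212 was thus the highest mouse in this negative acute-phase gene also. Among the 11 genes it was the highest in 3, where it was the highest in 20.3% of all genes. Ahsg, the calcium-binding plasma protein fetuin-A, had the lowest fold change, -0.19 with a limma adjusted p of 0.633. Fetub, a related fetuin, ran from 9051 to 15503 in the Control mice and from 10181 to 15839 in the Low AA mice.

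Upstream of these genes, 16 of 18 listed genes of interleukin-6 signalling through STAT3 and C/EBP were measured, and Il6 and Socs1 were not analysed here. Of the 16, 0 were called in limma, with 1 at an unadjusted p under 0.05, Tyk2, a Janus kinase, which was lower on the Low AA diet. The shares over all genes were 0.399% and 11.8%. The median log2 fold change of the 16 genes was -0.17. Cebpd, the C/EBP factor induced in the acute phase, had the highest value, 0.14, and Fos, an immediate early gene, the lowest, -0.79 with a limma adjusted p of 0.744. Fos and Junb were the widest, and their highest mouse was not F2212: Fos had 23, 28, 49 and 189 scaled counts in the Control mice and 8, 27, 45 and 63 in the Low AA mice, and Junb, its AP-1 partner, was highest in F2110 with 1009. F2212 was the highest of all 8 mice in 3 of the 16 (Stat3, Cebpa and Pias3) and the lowest in 3 (Il6ra, Jak1 and Ptpn11). Over all genes it was the highest in 20.3% and the lowest in 21.1%.

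For interleukin-1, TNF and NF-kappa-B, 21 of 22 listed genes were measured and Tnf was not analysed here. Here too 0 were called in limma, and 1 was under an unadjusted p of 0.05, Tnfaip3, an inhibitor of NF-kappa-B signalling, which also had the highest log2 fold change in the list, 0.41 with a limma adjusted p of 0.385. The shares over all genes were 0.399% and 11.8%. The median of the 21 genes was -0.01. Il1b, the cytokine itself, had the lowest, -0.65 with a limma adjusted p of 0.738, on 24, 39, 51 and 208 scaled counts in the Control mice and 26, 23, 45 and 59 in the Low AA mice. Il1r1, its receptor, was lowest in F2212 at 520 and highest in F7111 at 2923. In neither Il1b nor Il1r1 was F2212 the highest mouse. It was the highest of all 8 mice in 2 of the 21, Myd88 and Rela, and the lowest in 4.

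Receptors and partners of the acute-phase proteins were measured for 16 of 17 genes, with Slc22a17, a receptor for lipocalin 2, not analysed here. None was called in limma, 0 of 16, and 4 were under an unadjusted p of 0.05: Fpr1 and Fcgr3, receptors on myeloid cells, were higher, and Blvrb and Slc48a1, which handle biliverdin and heme, were lower. The shares over all genes were 0.399% and 11.8%. The median log2 fold change of the 16 genes was -0.04. Fpr2, a formyl peptide receptor that serum amyloid A engages, had the highest, 0.74 with a limma adjusted p of 0.460, on 28, 45, 15 and 14 scaled counts in the Control mice and 43, 31, 38 and 44 in the Low AA mice. Lrp2, the endocytic receptor megalin, had the lowest, -0.64 with a limma adjusted p of 0.683.

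Genes outside the members whose log2 values followed Saa1 most closely over the 8 mice were Shisa5 (Pearson r 0.953, Spearman rho 0.814), Mtif3 (r 0.950, rho 0.643) and Ropn1l (r 0.948, rho 0.857). Without F2212 and H828, the mice farthest from the median of Saa1, r over the other 6 was 0.54, -0.09 and 0.52, so this likeness rested on those 2 mice. Those closest to Hp were Sepw1 (r 0.970, rho 0.929), Haus8 (r 0.969, rho 0.929) and Gcgr, the glucagon receptor (r 0.969, rho 0.857). Without F2212 and F129, r was 0.78, 0.95 and 0.86. These genes were picked for their r out of all genes over mice of both diets, so the correlations are descriptions with no p-value.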

How the data were processed

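Poly(A) RNA of 8 livers, 1 per mouse, had been sequenced by the authors from stranded libraries. The submitters' processing notes name the mm10 build, bcl2fastq 1.8.2, STAR 2.5.0a, RSEM 1.2.6, edgeR 3.10.5 and R 3.2.1, with no roles. The authors deposited a signal per gene and mouse, a scaled read count rounded to whole numbers, whose scaling is not given in the sources used here; every listed gene reaches 28 in at least 3 mice. The deposited fold change and FDR columns were not used.

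Values were fitted as log2(value + 1) with limma 3.58.1 (R 4.3.3), using trended prior variances, and p-values were adjusted by Benjamini-Hochberg across the 11784 genes; a call is an adjusted p under 0.05. The fit was tested on simulated data. No count model was run on scaled values. Each mouse is 1 replicate, and nothing pairs mice across diets.

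The members and lists were chosen with earlier results of these data known. Named genes were every member; in each of 5 other pathway lists the called genes, the highest and lowest log2 fold change and the 2 widest ranges; the 3 genes with the highest Pearson r to Saa1 and to Hp; and markers a result turns on. Genes at an unadjusted p under 0.05, Itih4, Lrg1, Fgl1, Fga, Fgb and Fgg were named after their values were seen. So were the upstream genes named as highest or lowest in F2212. Alternatives were pseudocounts of 0.1 and 5, the 8000 genes of highest mean, equal column totals, no trend, robust moderation and each mouse left out. Coordinates and promoters are RefSeq and GENCODE on GRCm38; alignments used Biopython 1.88 and figures matplotlib 3.10.9.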

Additional observations from a re-analysis of the deposited data

Results flagged for a closer look

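A mouse was singled out where, on the scale of log2(value + 1), its gap to the nearest mouse of the same diet, divided by the range of the 4 mice, passed the critical value of Dixon's gap test. This was tried on 52 sets of 4 mice. Chance alone picks about 1 set in 20, but only where the sets were chosen without regard to their values. Of the 52, 4 were picked. The sets include the members, which were chosen with earlier results of these mice known. They also include genes named for a wide range, such as Hamp, for an extreme fold change, or because a result turns on them, such as Cela1. For such genes the 1 in 20 does not hold, and all 4 flags are descriptions. Gaps below are on that log2 scale, not on the scaled counts printed beside them. Saa1 in the Low AA mouse H828 had 68 scaled counts against 549 to 770 in the others, a gap of 0.860 of the range; values of Saa1 helped choose the group, so this is a description. Orm2 in the Control mouse F2212 had 693 against 100 to 132, a gap of 0.857. Hamp in H828 had 1169 against 17446 to 22426, a gap of 0.915. Cela1 in F2212 had 36587 against 130 to 178, a gap of 0.945.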

How the results depend on the processing

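The number of the 10 genes called in limma, 0 with all mice, ran from 0 to 1 when each mouse was left out: it was 1 without F2212 (Apcs), 1 without F2110 (Saa4) and 1 without H1315 (Orm1, whose values chose the group, so that call is no evidence). The number called of these 7 genes stayed 0 under the other pseudocounts, the 8000 genes of highest mean, equal column totals, no trend and robust moderation. Each of the 5 other pathway lists had 0 called genes under all of these and with each mouse left out. The 8000 genes of highest mean do not include Orm2, and several of the other lists were shorter there. Receptors and partners, for instance, went from 16 to 9 genes, and the genes left out were not tested in that setting. The sign changed in 2 genes with mice left out: Hpx ran from -0.092 (without F2110) to 0.27 and Lcn2 from -1.12 to 0.12, the last without F2212. The median within-diet SD of the 10 genes ran from 0.224 (without F2212) to 0.722 for the Control mice and from 0.332 (without H828) to 0.842 for the Low AA mice. Over all genes 47 were called with all mice and 19 without H828. No paired analysis was possible because the mouse codes share no number across diets. edgeR's count test on recovered reads was not run, because rounding after scaling did not let whole reads be recovered. With 4 mice per diet, of which F2212 and H828 set much of the spread of Saa1, Saa2, Orm2 and Lcn2, the diet difference of these genes is imprecise, and the sequencing depth behind the scaled counts is unknown.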
